A study of Mus musculus with 12 samples.

Results

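The genes described here are 27 genes of cholesterol synthesis, sterol sensing and intracellular sterol handling, chosen by gene symbol, and all 27 of them were among the 19252 genes of the deposited mouse liver gene table. They comprise 7 genes of the mevalonate steps, 11 of the steps that lead through squalene to cholesterol, 4 of sterol sensing, and 5 of sterol transport and related functions. Of the route by which cholesterol arrives with low density lipoprotein (LDL), the set holds Npc1 and Npc2, which move sterol out of the lysosome. The measurements are RNA levels in whole liver of C57BL/6 mice. NAC_HFD mice received a high fat diet and drinking water with 2 g of N-acetylcysteine (NAC) per litre, HFD mice a high fat diet without NAC, and NFD mice a normal fat diet. Feeding lasted 14 weeks in every group, each group has 4 libraries, and each sample is labelled 8 weeks old, with no word on when that age applied. All values are TPM, a share of all transcripts that is scaled for transcript length and that can be compared between genes; fold changes are on the log2(TPM + 1) scale. The labels name the samples by number within a group, so the p-values measure the spread between these samples.

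Cholesterol is built in the liver from acetyl-CoA by way of mevalonate, farnesyl diphosphate, squalene and lanosterol. Most enzymes of the route are transcribed under sterol regulatory element binding protein 2, the product of Srebf2, which the escort protein Scap carries from the endoplasmic reticulum to the Golgi for cleavage when membranes are poor in sterol. Insig1 and Insig2 hold Scap in the endoplasmic reticulum when sterol is plentiful, and the released factor binds sterol regulatory elements together with nuclear factor Y, which binds the CCAAT box.

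The RefSeq promoter table for build GRCm38.p6 held 22 of the 27 genes, in a window of 250 bases before to 50 after each start. A gene counted where any of its promoters held a motif, and the 22 genes had 29 promoters. CCAAT, searched on both strands, was in a window of 20 of the 22 genes (90.9%), against 41.1% of the 27025 genes in the table. Counted by promoter rather than by gene, 37.4% of all 32851 promoters held it. Pmvk, Dhcr7, Insig2 and Rdh11 also had promoters without CCAAT, so this share is not the counterpart of the 90.9%. The sterol regulatory element core TCACNCCA, searched on both strands, was in 3 of the 22 genes (13.6%), Hmgcs1, Msmo1 and Srebf2, against 4.97% of all genes. No copies of these motifs overlapped each other in the promoters of the 22 genes. Acat2 and Scap were the genes without CCAAT. The sequences shown are the 250 bases before the start of the 3 genes with the core, whose enzymes and factor are described below, and of Scap, one of the genes without CCAAT. They are written 5′ to 3′ on the strand of the gene, with TCACNCCA and CCAAT, or its reverse complement ATTGG, in capitals. The stretch of Hmgcs1 is chr13:119690101-119690350 on the plus strand, with the core starting 137 bases before the start and CCAAT boxes at 237, 176 and 45 bases before it.
Hmgcs1: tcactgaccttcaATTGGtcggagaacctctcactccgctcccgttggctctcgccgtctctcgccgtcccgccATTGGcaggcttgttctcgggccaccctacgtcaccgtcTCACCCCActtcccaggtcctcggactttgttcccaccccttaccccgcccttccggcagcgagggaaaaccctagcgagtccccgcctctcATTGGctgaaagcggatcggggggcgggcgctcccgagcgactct
The stretch of Msmo1 is chr8:64733579-64733828 on the minus strand, with the core starting 177 bases before the start and CCAAT boxes at 160, 96 and 55 bases before it.
Msmo1: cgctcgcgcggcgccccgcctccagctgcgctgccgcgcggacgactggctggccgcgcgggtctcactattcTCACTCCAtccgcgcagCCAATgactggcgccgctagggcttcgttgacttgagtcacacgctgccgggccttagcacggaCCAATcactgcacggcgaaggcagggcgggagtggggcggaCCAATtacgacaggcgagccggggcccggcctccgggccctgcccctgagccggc
The stretch of Srebf2 is chr15:82147019-82147268 on the plus strand, with the core starting 162 bases before the start and a CCAAT box at 135 bases before it.
Srebf2: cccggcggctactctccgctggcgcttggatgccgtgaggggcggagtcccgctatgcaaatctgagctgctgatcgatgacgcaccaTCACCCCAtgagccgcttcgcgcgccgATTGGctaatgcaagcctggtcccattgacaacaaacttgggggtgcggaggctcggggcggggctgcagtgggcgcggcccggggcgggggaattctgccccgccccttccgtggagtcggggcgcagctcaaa
The stretch of Scap is chr9:110333038-110333287 on the plus strand and held neither motif.
Scap: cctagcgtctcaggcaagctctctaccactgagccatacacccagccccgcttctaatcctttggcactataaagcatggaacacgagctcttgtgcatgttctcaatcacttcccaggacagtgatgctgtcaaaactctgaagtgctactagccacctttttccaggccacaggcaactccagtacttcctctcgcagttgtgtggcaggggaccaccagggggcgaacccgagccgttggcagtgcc
These matches describe the letters in the windows and were not tested as binding sites.

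Across the series, 11376 genes passed the filter of at least 1 TPM in at least 4 of the 12 libraries, and so did all 27 genes of the set. The read depth behind the TPM is unknown, so no counting interval can be given. All 8 hepatocyte markers were present, with a summed level of 40683 to 57534 TPM in NAC_HFD, 36991 to 53673 TPM in HFD and 45375 to 50358 TPM in NFD. The summed 10 Kupffer cell markers were at 67.5 to 138 TPM in NAC_HFD, 98.4 to 261 TPM in HFD and 73.9 to 142 TPM in NFD. The gene table held 5 of 6 adipose and 6 of 7 T and NK cell markers, and all markers of the other lists. No marker that it held was at 0 in all libraries. Of the markers in the gene table, only 2 of 5 adipose, 2 of 6 T and NK cell, 1 of 5 B cell and 2 of 5 neutrophil markers reached 1 TPM. So did 4 of 6 cholangiocyte and 6 of 9 monocyte and macrophage markers, and all markers of the other lists. In whole liver, fewer cells of a type and less RNA per cell cannot be told apart.

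The 27 genes spanned a wider range between libraries of a group than between the group means. Their mean log2(TPM + 1) was 4.04, 3.86, 4.56 and 5.24 in the 4 NAC_HFD libraries, 5.24, 5.31, 4.82 and 4.32 in the HFD libraries, and 5.09, 4.71, 4.49 and 5.26 in the NFD libraries. The group means were 4.43 ± 0.62 in NAC_HFD, 4.92 ± 0.46 in HFD and 4.89 ± 0.35 in NFD (SD, n = 4 each). The ranges of the 3 groups overlapped, and the highest NAC_HFD library was level with the second highest HFD library. Over all 11376 genes tested, the same mean spanned 0.06 in NAC_HFD, 0.15 in HFD and 0.08 in NFD, against 1.38, 0.99 and 0.77 for the 27 genes in the same order of groups. NAC_HFD library 4 held the highest value of its group for 24 of the 27 genes, and NAC_HFD library 2 the lowest value of all 12 libraries for 19. HFD library 4 was the lowest of its group for 24 genes, and NFD library 4 the highest of its group for 17. HFD library 4 also held the lowest summed hepatocyte markers of all 12 libraries, 36991 TPM, and the highest summed Kupffer cell markers, 261 TPM. Its mean log2(TPM + 1) over the hepatocyte markers, 10.90, was level with the 10.91 of HFD library 1. The part of cell make-up in its low values was not tested.

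**Figure D1:**
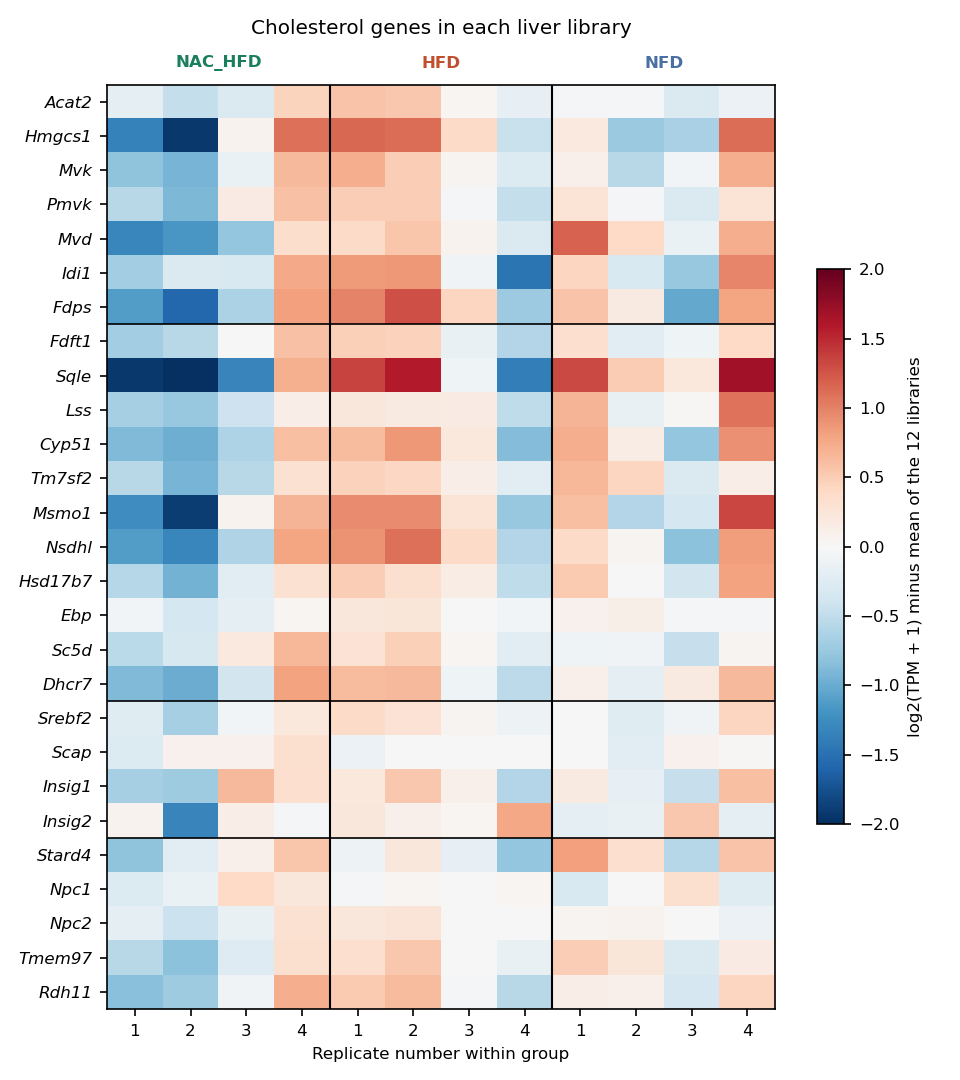
Each cell is the log2(TPM + 1) of a gene in a liver library minus the mean of that gene over the 12 libraries, with red above and blue below the mean. Rows run from the mevalonate steps through the later synthesis steps and sterol sensing to sterol transport, with lines between these roles; columns are the 4 replicates of NAC_HFD, HFD and NFD. Nearly whole columns share a colour, with NAC_HFD replicates 1 and 2 and HFD replicate 4 blue, and NAC_HFD replicate 4 red.

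Against HFD, NAC_HFD livers had a lower mean log2(TPM + 1) for 24 of the 27 genes and a higher one for Scap, Stard4 and Npc1, and none of the 27 differences passed the threshold. In limma with Benjamini-Hochberg adjustment, 0 of the 27 genes had an adjusted p under 0.05, as did 0 of all 11376 genes tested (0.0%). At an unadjusted p under 0.05 there were 3 of the 27 genes (11.1%), Mvd, Tm7sf2 and Ebp, against 16.4% of all genes tested. That count moved with single libraries and with the setting. Under median-of-ratios scaling it was 1 (14.7% of all genes tested), and with the replicate block also 1 (15.6%). Rescaled over protein-coding genes it was 2 (14.9%), and with eBayes without trend and robust 5 (16.5%). With libraries left out, it was 16 of the 27 without NAC_HFD library 4 (15.5% of all genes tested) and 10 without HFD library 4 (15.6%). It was 1 without NAC_HFD library 1, 2 without HFD library 3, and 0 without NAC_HFD library 2 or 3 or without HFD library 1 or 2, where 11.7% to 17.7% of all genes passed. The median log2 fold change was -0.43 over the 27 genes and -0.08 over all genes tested, of which 31.5% were positive and 68.5% negative. All 7 mevalonate genes and all 11 genes of the later steps were on the negative side, with medians of -0.56 and -0.53. The 4 sterol sensing genes had a median of -0.25 and the 5 transport genes one of -0.23. No gene of the set had groups that did not overlap, against 1.56% of all genes higher without overlap and 8.66% lower without overlap. The number of the 27 genes with a positive fold change was 0 without NAC_HFD library 4 and 6 without NAC_HFD library 1.

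Against NFD, NAC_HFD livers again had a lower mean log2(TPM + 1) for 24 of the 27 genes, with Sc5d, Scap and Npc1 on the positive side; Acat2, which is among the 24, had a slightly higher mean TPM in NAC_HFD. None of the 27 passed the threshold in limma after adjustment, against 601 of the 11376 genes tested (5.28%), of which 200 were higher (1.76%) and 401 lower (3.52%) in NAC_HFD. Under median-of-ratios scaling 622 genes passed, of which 371 were higher. At an unadjusted p under 0.05 there were 4 of the 27 genes (14.8%), Mvd, Sqle, Lss and Tm7sf2, against 22.6% of all genes tested. Without NAC_HFD library 4 the count was 11 of the 27, against 18.8% of all genes tested, and without NAC_HFD library 1 or 2 it was 2, against 22.7% and 22.5%; leaving out any other library gave 3 to 6. The median log2 fold change was -0.36 over the 27 genes and -0.07 over all genes tested, of which 37.5% were positive. No gene of the set had groups that did not overlap, against 3.52% of all genes higher and 8.52% lower without overlap. The median was -0.67 over the 11 genes of the later steps and -0.36 over the 7 mevalonate genes. Without NAC_HFD library 4, Mvd passed the threshold, with a log2 fold change of -1.62 (SE 0.29, adjusted p = 0.0233, limma).

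Against NFD, HFD livers had 16 of the 27 genes with a higher and 11 with a lower mean log2(TPM + 1), none of them past the threshold. The adjusted p was under 0.05 for 0 of the 27 genes in limma, against 316 of 11376 genes tested (2.78%), of which 249 were higher (2.19%) and 67 lower (0.589%) in HFD. Under quantile normalization 419 genes passed, of which 259 were higher. No gene of the set had an unadjusted p under 0.05, against 19.1% of all genes tested. The median log2 fold change was 0.06 over the 27 genes and 0.01 over all genes tested, of which 52.7% were positive, with a range of -0.56 to 0.57 over the 27. No gene of the set had groups that did not overlap, against 7.78% of all genes higher and 4.57% lower without overlap. The count of higher genes moved to 23 without HFD library 4, to 22 without NFD library 4, and to 11 without HFD library 2 or without NFD library 3. The 3 comparisons share libraries in pairs, so their fold changes are not independent of each other.

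**Figure D2:**
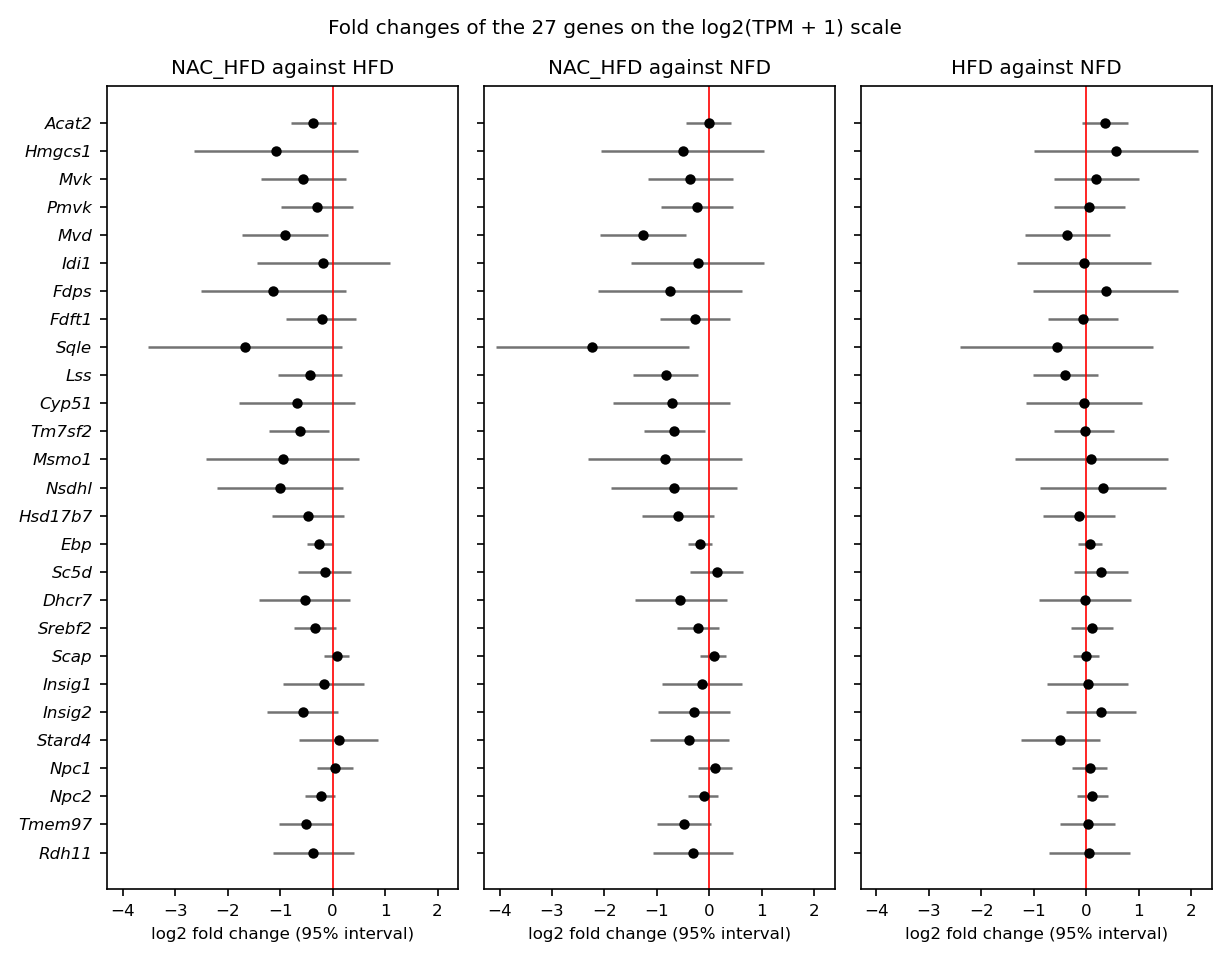
Points are log2 fold changes of the 27 genes and bars their 95% intervals from the limma fit to 12 libraries; the panels show NAC_HFD against HFD, NAC_HFD against NFD and HFD against NFD, and the red line marks 0. In the NAC_HFD panels 24 of 27 points lie left of 0, most bars cross it, and the widest bars belong to Sqle and Hmgcs1.

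Among the mevalonate genes, Hmgcs1, the cytosolic HMG-CoA synthase (ENSMUSG00000093930, chromosome 13, 119690351 to 119708260; positions are those of RefSeq, GRCm38.p6), showed a wide spread in all groups. It had 19.2, 12.5, 52.95 and 109 TPM in NAC_HFD, 114, 110.4, 66.1 and 36.9 TPM in HFD and 57.9, 29.99, 31.7 and 111 TPM in NFD. The top library of each group lay between 109 and 114 TPM, and the groups differed at their low end. Its log2 fold change was -1.08 in NAC_HFD against HFD (SE 0.70, adjusted p = 0.465, limma) and 0.57 in HFD against NFD (SE 0.70, adjusted p = 0.710). The interval of the second ran from -0.99 to 2.13 and holds a difference of either sign. Without NAC_HFD library 2 the fold change against HFD was -0.61, and that of HFD against NFD ranged from 0.33 without NFD library 2 to 0.95 without NFD library 4.

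Mvd, the decarboxylase that makes isopentenyl diphosphate (ENSMUSG00000006517, chromosome 8, 122433596 to 122443422), had the smallest p of the set in both NAC_HFD comparisons. It had 2.09, 2.43, 3.47 and 8.76 TPM in NAC_HFD, 9.0, 10.3, 7.05 and 5.24 TPM in HFD and 16.4, 9.12, 5.96 and 11.6 TPM in NFD. In NAC_HFD, 3 libraries lay below every library of the other groups, and library 4 lay among the HFD and NFD values. The log2 fold change was -0.90 in NAC_HFD against HFD (SE 0.37, 95% interval -1.72 to -0.09, adjusted p = 0.260, limma) and -1.27 in NAC_HFD against NFD (SE 0.37, 95% interval -2.08 to -0.45, adjusted p = 0.0737). A lncRNA gene of the RefSeq annotation lies within the span of Mvd, and the sources used here do not say whether the counting used strand.

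Fdps, farnesyl diphosphate synthase, whose product is the branch point to squalene and to isoprenoids, had 30.1, 21.7, 42.7 and 119 TPM in NAC_HFD, 134, 165, 90.6 and 40.1 TPM in HFD and 99.1, 75.6, 32.2 and 116 TPM in NFD. Its lowest HFD and lowest NFD values, from HFD library 4 and NFD library 3, lay within the range of the first 3 NAC_HFD libraries. The log2 fold change of NAC_HFD against HFD was -1.13 (SE 0.62, adjusted p = 0.394, limma).

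Acat2, the cytosolic acetoacetyl-CoA thiolase that starts the route, was steadier. It had 16.2, 12.97, 14.9 and 25.5 TPM in NAC_HFD, 28.1, 27.4, 18.99 and 16.3 TPM in HFD and 18.1, 18.1, 14.9 and 16.97 TPM in NFD. HFD libraries 1, 2 and 3 lay above all NFD libraries and HFD library 4 within them, and the log2 fold change of HFD against NFD was 0.36 (SE 0.20, adjusted p = 0.350, limma), the smallest p of the set in that comparison. The kinases Mvk and Pmvk and the isomerase Idi1 complete these steps. Mvk averaged 6.21 ± 3.89 TPM in NAC_HFD, 8.93 ± 2.99 TPM in HFD and 7.82 ± 3.27 TPM in NFD (SD, n = 4 each). Pmvk averaged 9.45 ± 4.75 TPM, 11.3 ± 3.70 TPM and 10.5 ± 2.03 TPM in the same order of groups. Idi1 was at 30.3 to 84.1 TPM in NAC_HFD, 17.4 to 91.2 TPM in HFD and 28.9 to 98.6 TPM in NFD, and its lowest value of all was that of HFD library 4.

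In the later steps, Sqle, the squalene epoxidase that is a control point of the route (ENSMUSG00000022351, chromosome 15, 59315092 to 59331193), differed most between libraries. It had 1.94, 0.77, 3.46 and 17.2 TPM in NAC_HFD, 27.6, 32.5, 9.57 and 3.29 TPM in HFD and 26.8, 14.9, 11.99 and 34.6 TPM in NFD. The highest library was 22.4 times the lowest in NAC_HFD, 9.87 times in HFD and 2.89 times in NFD. In NAC_HFD, 3 libraries lay below all NFD libraries, but library 4 lay inside the NFD range and above HFD libraries 3 and 4. The log2 fold change was -1.67 in NAC_HFD against HFD (SE 0.82, 95% interval -3.51 to 0.17, adjusted p = 0.344, limma) and -2.23 in NAC_HFD against NFD (SE 0.82, 95% interval -4.07 to -0.39, adjusted p = 0.146). In HFD against NFD it was -0.56 (SE 0.82, adjusted p = 0.758), and 0.02 without HFD library 4.

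Lss, the cyclase that makes lanosterol, had 5.80, 5.32, 7.08 and 10.8 TPM in NAC_HFD, 11.5, 11.1, 11.02 and 6.51 TPM in HFD and 16.1, 8.69, 9.95 and 21.7 TPM in NFD. NFD libraries 2 and 3 lay below NAC_HFD library 4, so that these groups overlapped. Its log2 fold change was -0.83 in NAC_HFD against NFD (SE 0.28, adjusted p = 0.109, limma) and -0.40 in HFD against NFD (SE 0.28, adjusted p = 0.475). Transcripts that the authors class as lncRNA made up 43.0% of its gene value, and over its mRNA transcripts alone the HFD against NFD value was 0.03.

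Tm7sf2, a sterol reductase, had 22.4, 16.9, 22.4 and 41.2 TPM in NAC_HFD, 45.98, 44.5, 36.7 and 28.6 TPM in HFD and 53.02, 45.2, 27.1 and 36.4 TPM in NFD. The first 3 NAC_HFD libraries lay below all others, with log2 fold changes of -0.63 against HFD (SE 0.26, adjusted p = 0.264, limma) and -0.67 against NFD (SE 0.26, adjusted p = 0.160). Tm7sf2 overlaps Vps51 in the RefSeq annotation. Of the other genes, Fdft1 overlaps the protein-coding Ctsb and Npc1 the protein-coding Rmc1. Acat2 overlaps a pseudogene, and Fdps, Lss, Srebf2 and Insig1 overlap noncoding RNA genes. The limit on strand given for Mvd holds for all of these genes.

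Msmo1, the methylsterol monooxygenase, had 15.5, 9.54, 39.99 and 61.6 TPM in NAC_HFD, 74.4, 74.7, 46.3 and 22.1 TPM in HFD and 58.7, 24.96, 29.7 and 97.6 TPM in NFD. Like Hmgcs1, it had its lowest values in NAC_HFD libraries 1 and 2, and its log2 fold change against NFD was -0.85 (SE 0.66, adjusted p = 0.474, limma), but -0.42 without NAC_HFD library 2 and -0.49 without NFD library 4. Nsdhl, the sterol dehydrogenase that acts after Msmo1, had 4.47, 3.82, 6.85 and 19.6 TPM in NAC_HFD, 21.1, 24.4, 14.5 and 6.89 TPM in HFD and 14.6, 11.3, 5.70 and 20.2 TPM in NFD. Its values in HFD library 4 and NFD library 3 were close to those of the first 3 NAC_HFD libraries, and its log2 fold change against HFD was -1.0 (SE 0.54, adjusted p = 0.383, limma).

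**Figure D3:**
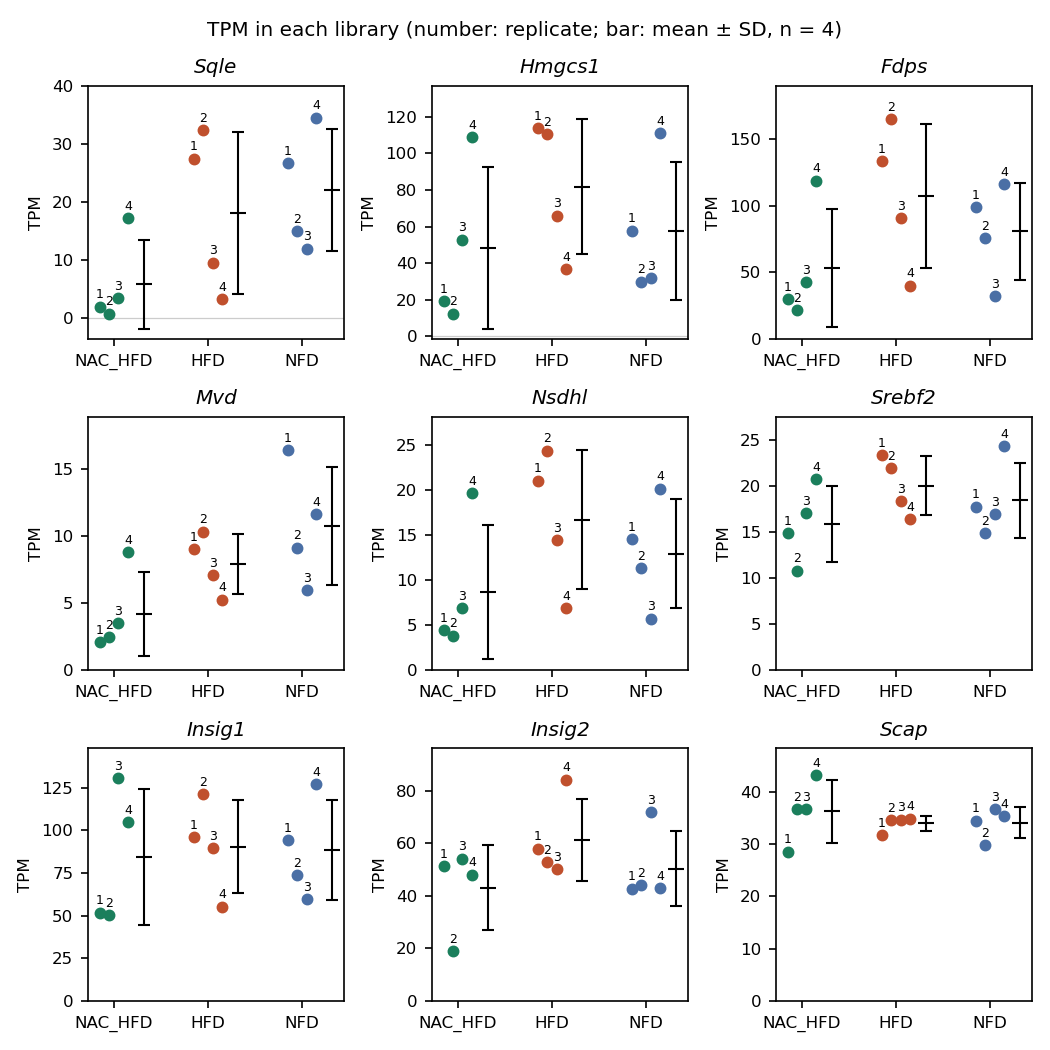
Each dot is the TPM of a gene in a library, labelled with its replicate number, in NAC_HFD, HFD and NFD from left to right; the black bar beside each group is the mean ± SD (n = 4), and axes start at 0 or below it where a bar goes below 0. Sqle, Hmgcs1, Fdps, Mvd and Nsdhl have NAC_HFD replicate 4 apart from replicates 1 and 2 of its group, Scap has group means close to each other, and Insig2 has its highest HFD value in replicate 4.

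Sc5d, the sterol desaturase, was one of the abundant genes of the set. It had 89.3, 104, 149.7 and 207 TPM in NAC_HFD, 160.2, 181, 134 and 111 TPM in HFD and 123, 125, 94.2 and 135 TPM in NFD, and NAC_HFD held both its highest and its lowest library of all 12. Its log2 fold change in HFD against NFD was 0.28 (SE 0.24, adjusted p = 0.543, limma). The squalene synthase Fdft1 was at 19.0 to 47.8 TPM in NAC_HFD, 20.6 to 44.01 TPM in HFD and 27.1 to 41.6 TPM in NFD. The lanosterol demethylase Cyp51 was at 11.8 to 37.2 TPM in NAC_HFD, 12.8 to 44.9 TPM in HFD and 13.7 to 46.2 TPM in NFD. Hsd17b7, a ketosteroid reductase, was at 7.93 to 20.1 TPM, 11.01 to 23.1 TPM and 12.3 to 28.9 TPM, and Dhcr7, the dehydrocholesterol reductase, at 8.36 to 31.4 TPM, 11.97 to 28.2 TPM and 15.4 to 28.2 TPM, each in NAC_HFD, HFD and NFD in that order. All 4 of these genes overlapped between all groups.

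Ebp, the sterol isomerase, stood apart from the other enzymes in what its gene value holds. The gene value was 155, 126, 142 and 165 TPM in NAC_HFD, 189, 190.5, 163 and 156 TPM in HFD and 171, 175, 156 and 158 TPM in NFD, with a log2 fold change of -0.25 in NAC_HFD against HFD (SE 0.11, adjusted p = 0.265, limma). Of this value 95.3% came from transcripts that the authors class as lncRNA, chiefly NONMMUT154169.1 with a mean of 150 TPM. The mRNA transcripts of Ebp averaged 7.27 ± 1.01 TPM in NAC_HFD, 8.27 ± 1.46 TPM in HFD and 7.39 ± 0.960 TPM in NFD (SD, n = 4 each). The gene value of Ebp thus mostly counts lncRNA transcripts.

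**Figure D4:**
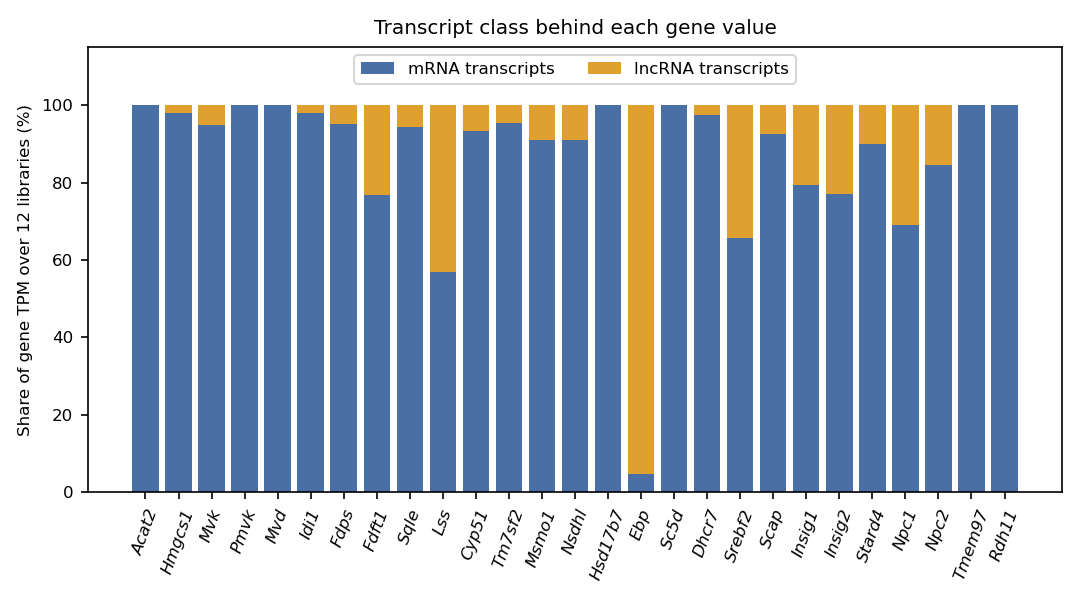
Bars give, for each of the 27 genes, the share of the gene TPM summed over the 12 libraries that comes from mRNA transcripts (blue) and from lncRNA transcripts (orange) as the authors class them. Ebp is nearly all lncRNA at 95.3%, followed by Lss at 43.0%, Srebf2 at 34.4% and Npc1 at 31.0%, and 7 genes have no lncRNA share.

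Among the sensing genes, Srebf2, which encodes the transcription factor of the route, was at 10.8 to 20.8 TPM in NAC_HFD, 16.4 to 23.4 TPM in HFD and 14.9 to 24.3 TPM in NFD. Its order of libraries within HFD was that of Hmgcs1, with library 1 highest and library 4 lowest. Insig1, itself a target of the factor, was at 50.1 to 130.4 TPM in NAC_HFD, 55.3 to 121 TPM in HFD and 59.8 to 127 TPM in NFD, and NAC_HFD libraries 3 and 4 lay far above libraries 1 and 2. Insig2 (ENSMUSG00000003721, chromosome 1, 121304353 to 121332662), whose liver transcript is known to be lowered by insulin, averaged 43.2 ± 16.3 TPM in NAC_HFD, 61.3 ± 15.6 TPM in HFD and 50.4 ± 14.4 TPM in NFD (SD, n = 4 each). Its highest HFD value, 84.2 TPM, was in library 4, where most of the other genes had their lowest HFD value, and its highest NFD value, 71.9 TPM, was in library 3, the lowest NFD library for 16 of the 27 genes. Scap averaged 36.3 ± 6.02 TPM in NAC_HFD, 34.0 ± 1.51 TPM in HFD and 34.1 ± 2.96 TPM in NFD (SD, n = 4 each).

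Of the genes of sterol transport and related functions, Stard4, a cytosolic sterol carrier, had 16.9, 26.1, 32.7 and 45.1 TPM in NAC_HFD, 28.3, 35.5, 26.9 and 17.4 TPM in HFD and 54.3, 38.4, 20.1 and 45.4 TPM in NFD. NFD library 3 lay among the HFD values and the other 3 NFD libraries above all of them, with a log2 fold change of -0.49 in HFD against NFD (SE 0.34, adjusted p = 0.469, limma). Tmem97, an endoplasmic reticulum protein that binds Npc1 and lowers its level in cultured cells, had 21.6, 17.9, 26.7 and 40.5 TPM in NAC_HFD, 40.9, 47.5, 32.4 and 28.9 TPM in HFD and 45.7, 38.2, 26.2 and 36.3 TPM in NFD. The log2 fold change of NAC_HFD against HFD was -0.51 (SE 0.24, adjusted p = 0.311, limma), with library 4 of NAC_HFD inside the HFD range. Npc1 averaged 49.8 ± 10.9 TPM in NAC_HFD, 47.4 ± 1.21 TPM in HFD and 45.9 ± 9.69 TPM in NFD, and Npc2 averaged 11.3 ± 2.77 TPM, 13.3 ± 1.42 TPM and 12.1 ± 0.758 TPM in the same order (SD, n = 4 each). Rdh11, a retinol dehydrogenase that is a known target of the sterol factor, was at 3.53 to 12.3 TPM in NAC_HFD, 4.49 to 11.5 TPM in HFD and 5.38 to 9.93 TPM in NFD.

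The spread between replicates of these genes ranked high among all genes. The SD of log2(TPM + 1) within groups, pooled over the 3 groups, had a median of 0.497 over the 27 genes and of 0.178 over all genes tested, and 0.497 was the 96.9th percentile of all genes tested. Of the 27 genes, 21 exceeded the 90th percentile, 0.334. Sqle had a within-group SD of 1.22, Hmgcs1 of 1.03, Msmo1 of 0.972 and Fdps of 0.918. Ebp at 0.137 and Scap at 0.161 were below the median of all genes tested. The coefficient of variation of TPM reached 131% for Sqle, 91.1% for Hmgcs1, 85.3% for Nsdhl and 83.5% for Fdps, all in NAC_HFD. The median within-group SD of the 27 genes was 0.619 in NAC_HFD against 0.172 over all genes tested, 0.439 in HFD against 0.141, and 0.409 in NFD against 0.180. Among other lists, the lipogenic genes under the related factor Srebf1 had a pooled median of 0.477, the sterol efflux genes under the liver X receptors one of 0.249, the Kupffer cell markers one of 0.476, and the enzymes of the isoprenoid branches one of 0.168. The erythroid markers, with 0.799 over 5 genes, and the adipose markers, with 0.586 over 2 genes, exceeded the set.

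The spread was largely shared. After group means were removed, the median correlation between pairs of the 27 genes was 0.80 over 351 pairs and 12 libraries, with a range of -0.37 to 0.99. Leaving out a library gave medians of 0.74 to 0.84. The correlation of each gene with the mean of the other 26 had a median of 0.91 and was above 0.8 for 22 of the 27 genes. Over the 11349 genes tested outside the set, the correlation with the mean of the 27 had a median of 0.13 and was above 0.8 for 97 genes (0.855%). The highest values were 0.97 for Sqle, Nsdhl, Pmvk and Rdh11. The exceptions were Insig2 at -0.00, Npc1 at 0.09, Scap at 0.40, Ebp at 0.70 and Npc2 at 0.76. The median correlation between pairs was 0.83 within the mevalonate genes, 0.86 within the later steps, 0.64 within the transport genes and 0.32 within the sensing genes. These correlations describe 12 libraries that the genes share, and TPM ties the values of a library together. The summed hepatocyte markers had a correlation of 0.77 with the mean of the 27 genes, but gene by gene only Ttr at 0.87 and Alb at 0.84 were high, and the median over the 8 markers was 0.00, with Cps1 at -0.48. The summed stellate markers had a correlation of 0.60, with a median of 0.41 over 10 genes. The summed adipose markers had one of 0.58, which was that of the abundant Car3, while Cfd was at -0.24. The summed Kupffer markers had one of -0.03, with a median of -0.04 over 10 genes. The part of these marker levels in the shared spread was not tested.

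**Figure D5:**
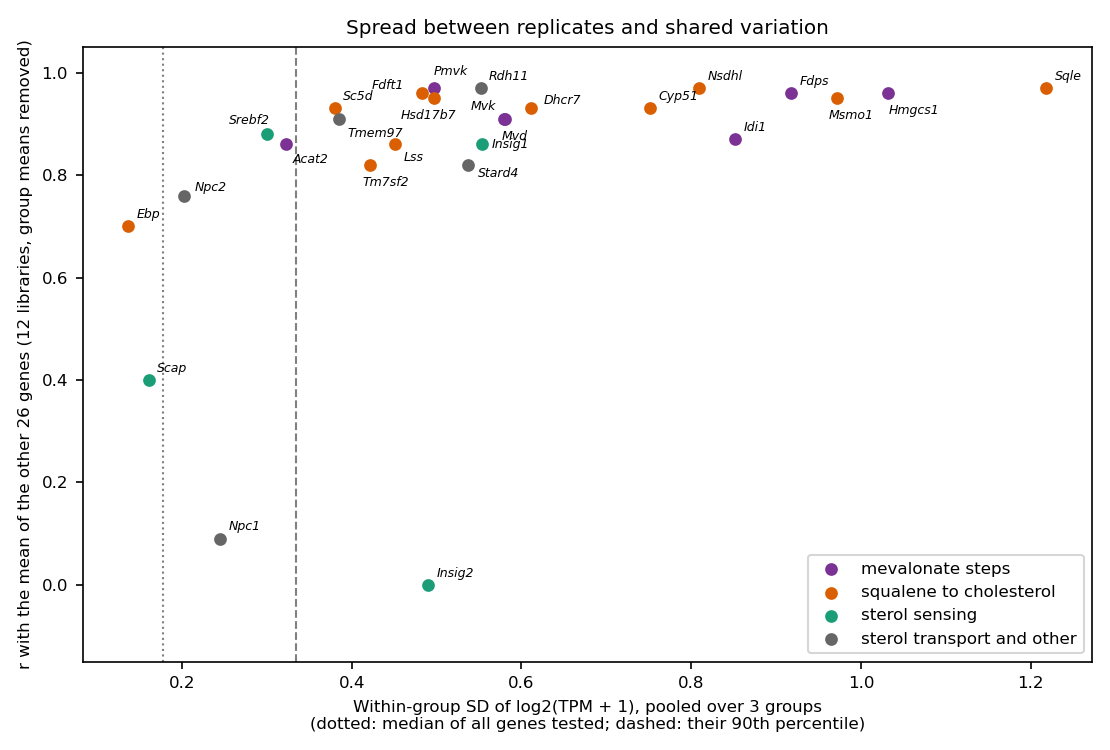
Each point is a gene, placed by its within-group SD of log2(TPM + 1), pooled over the 3 groups (x axis), and by its correlation over 12 libraries with the mean of the other 26 genes after removal of group means (y axis), coloured by role. The dotted line is the median SD of all genes tested, 0.178, and the dashed line their 90th percentile, 0.334. Most genes lie at the upper right, with Sqle farthest right, while Insig2 has a wide spread but a correlation of -0.00.

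Outside the set, the tested gene most like its mean over the 12 libraries was Erg28, which encodes a scaffold of the sterol demethylation enzymes, with a Pearson correlation of 0.98 and a Spearman correlation of 0.91. It had 22.9, 22.7, 36.2 and 45.9 TPM in NAC_HFD, 49.8, 46.6, 36.2 and 29.4 TPM in HFD, and 35.0, 28.6, 25.4 and 35.6 TPM in NFD. Further genes among the 10 most alike were Casp9 at 0.93, Zfyve16, H2-Q10, Scpep1 and Acsl5 at 0.92, and Apoa2, Abcd2 and Lias at 0.91. In fixed lists of related pathways, genes above 0.8 were Lipa, the lysosomal lipase that frees LDL cholesterol, at 0.81, and Acss2 and Fads1 of the lipogenic list, each at 0.83. The median correlation was 0.61 over 8 electron donors and scaffolds, 0.46 over 12 lipogenic genes, 0.42 over 9 liver X receptor and sterol efflux genes, 0.19 over 19 genes of LDL uptake and sterol transport, and 0.02 over 8 isoprenoid branch genes.

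Some genes that work around the set passed the threshold in comparisons with NFD. Of 8 electron donors and scaffolds, 2 were called higher in NAC_HFD against NFD, where 1.76% of all genes were. In HFD against NFD 2 were called higher, where 2.19% of all genes were. Por is the reductase that supplies electrons to Cyp51 and Sqle. It averaged 423 ± 72.4 TPM in NAC_HFD, 343 ± 19.1 TPM in HFD and 257 ± 29.0 TPM in NFD. Its log2 fold change was 0.71 in NAC_HFD against NFD (SE 0.13, adjusted p = 0.00965, limma). In HFD against NFD it was 0.42 (SE 0.13, adjusted p = 0.0905, limma). Acat1, the mitochondrial counterpart of Acat2, averaged 109 ± 11.9 TPM in NAC_HFD, 118 ± 8.71 TPM in HFD and 83.0 ± 6.12 TPM in NFD, with adjusted p of 0.0434 and 0.0189 against NFD. Leaving out a library in turn kept its call in 1 of 12 fits for NAC_HFD and in 10 of 12 for HFD. Cyb5a, cytochrome b5, averaged 1110 ± 80.4 TPM in NAC_HFD, 1239 ± 47.5 TPM in HFD and 908 ± 94.8 TPM in NFD. It passed in HFD against NFD (adjusted p = 0.0283, limma), a call that 6 of the 12 such fits kept. In NAC_HFD against NFD it did not pass (adjusted p = 0.102, limma). Of 9 tested partners of sterol sensing, 1 was called lower in each of these comparisons, where 3.52% (NAC_HFD) and 0.589% (HFD) of all genes were. It was Rnf145, a sterol-responsive ubiquitin ligase, with 6.85 ± 0.861 TPM in NAC_HFD, 6.28 ± 1.53 TPM in HFD and 11.7 ± 1.31 TPM in NFD, and log2 fold changes of -0.70 and -0.82 against NFD (SE 0.14 each, adjusted p = 0.0141 and 0.00854, limma). Por in NAC_HFD against NFD and Rnf145 in both comparisons passed in all 12 such fits. In all of these values SD is over n = 4.

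Of 9 liver X receptor and sterol efflux genes, 2 were called higher in NAC_HFD and 1 in HFD, each against NFD. Over all genes these shares were 1.76% and 2.19%. Abcg8, a subunit of the canalicular sterol exporter, averaged 40.9 ± 12.5 TPM in NAC_HFD, 33.8 ± 1.41 TPM in HFD and 20.5 ± 2.09 TPM in NFD, with log2 fold changes of 0.91 and 0.70 against NFD (SE 0.17 each, adjusted p = 0.0118 and 0.0450, limma). Its partner Abcg5 averaged 37.0 ± 8.98 TPM in NAC_HFD, 34.0 ± 1.68 TPM in HFD and 22.3 ± 4.41 TPM in NFD, with adjusted p of 0.0247 and 0.0560. With a library left out, Abcg8 passed in all 12 fits for NAC_HFD and in 4 of 12 for HFD, and Abcg5 in 8 of 12 for NAC_HFD. Of 19 genes of LDL uptake and sterol transport, none passed in HFD against NFD. In NAC_HFD against NFD, Mylip, a ubiquitin ligase of lipoprotein receptors, rose (6.13 ± 0.256 TPM in NAC_HFD and 4.46 ± 0.664 TPM in NFD, adjusted p = 0.0362, limma), and Gramd1a, a sterol carrier from plasma membrane to endoplasmic reticulum, fell (4.36 ± 0.478 TPM in NAC_HFD and 6.46 ± 0.983 TPM in NFD, adjusted p = 0.0488, limma). That is 1 gene in each direction of 19, where 1.76% of all genes were called higher and 3.52% lower, and with a library left out Mylip passed in 4 and Gramd1a in 3 of 12 fits. None of the 8 isoprenoid branch genes and none of the 12 tested lipogenic genes passed in any comparison, and no gene of these lists passed in NAC_HFD against HFD, where no gene of the table did.

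The deposited transcript tables list 142 transcripts of the 27 genes, 90 classed as mRNA and 52 as lncRNA. In limma on the mRNA transcripts, 0 of 70 tested transcripts of these genes passed in any comparison. Over all 31185 mRNA transcripts tested, 6 passed in NAC_HFD against HFD (0.0192%), 126 in NAC_HFD against NFD (0.404%) and 64 in HFD against NFD (0.205%). The smallest adjusted p of a transcript of the set was 0.161, for the transcript of Mvd in NAC_HFD against NFD (log2 fold change -1.49, SE 0.43, limma). Of the 942 mRNA transcripts in the authors' deposited table for NAC_HFD against HFD, 2 belong to the set, Stard4 with a fold of 5.34 (adjusted p = 0.472) and Msmo1 with a fold of 0.321 (adjusted p = 0.332). Neither is the main transcript of its gene, which carried 85.3% of the Stard4 value and 83.0% of the Msmo1 value. Of the 1110 mRNA transcripts in the authors' deposited table for HFD against NFD, 1 belongs to the set, the same Stard4 transcript with a fold of 0.122 (adjusted p = 1.0). The authors' lncRNA lists hold 4 transcripts of the set among 1075 for NAC_HFD against HFD and 2 among 789 for HFD against NFD. The smallest adjusted p of these was 0.0781 (test not named by the authors), for a Tm7sf2 transcript with a fold of 0.431 in NAC_HFD against HFD. How many transcripts the authors' mRNA and lncRNA lists were drawn from is not given here. The counts therefore do not say whether the set is over- or under-represented in them.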

How the data were processed

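Total RNA from whole liver (C57BL/6 mice) gave 12 libraries, grouped by their labels into NAC_HFD, HFD and NFD with 4 each. Per the labels' protocols, RNA was extracted with TRIzol and treated with DNase I. The submitters' processing notes name fastp, HISAT and RSEM and build GRCm38; the sources used here give neither versions nor settings. The authors deposited TPM for genes and for mRNA and lncRNA transcripts; TPM keeps no depth, so depth per library is unknown and no counting interval was given. Per the file headers, the authors' deposited comparison tables also hold linear fold ratios, log2 folds, p-values and adjusted p-values, which no fit used.

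Genes with at least 1 TPM in at least 4 libraries (11376 of 19252) were fitted on log2(TPM + 1) in 1 model of 3 group means with limma 3.58.1 (eBayes with trend and robust; 9 residual degrees of freedom before moderation) in R 4.3.3. The pseudocount understates changes of low genes. Tests were two-sided with Benjamini-Hochberg adjustment over all genes and a threshold of 0.05. mRNA transcripts were fitted likewise with a floor and pseudocount of 0.1 TPM. The fit was tested on simulated data in which each gene was drawn independently. That setting lacks the shared spread of the 27 genes, so it does not speak to the fit under such spread. The 27 genes and the other lists were chosen with earlier results of these data known. Values in every library are given for the 4 genes of the set with the smallest p and the 4 with the largest fold change in each comparison and the 4 with the largest coefficient of variation; of other lists, genes past the threshold are named. Of the 10 genes most like the set, 1 is not reported here. Alternatives were other pseudocounts, filters, scalings and fits, a replicate block, leaving out each library, and, chosen after seeing the data, mRNA transcripts only.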

Additional observations from a re-analysis of the deposited data

Results flagged for a closer look

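Of 81 groups of 4 values (27 genes in 3 groups), 5 held a library whose gap to its nearest neighbour was larger, relative to the range of the group, than the 95% critical value of Dixon's test; chance gives about 1 in 20 groups. Sqle in NAC_HFD library 4 was at 17.21 TPM, with the next value at 3.46 TPM. Cyp51 in the same library was at 37.16 TPM, with the next at 15.39 TPM. Lss in HFD library 4 was at 6.51 TPM, with the next at 11.02 TPM. Scap in HFD library 1 was at 31.71 TPM, with the next at 34.56 TPM. Insig2 in NFD library 3 was at 71.94 TPM, with the next at 43.98 TPM. NAC_HFD library 4 and HFD library 4 are also the libraries in which 24 of the 27 genes had the highest or the lowest value of their group.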

How the results depend on the processing

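Under no planned setting other than leaving out a library did a gene of the set pass the threshold. Over all genes, NAC_HFD against HFD gave 24 calls with a pseudocount of 5 and 3 with the replicate block, against 0. Without the filter on low values, NAC_HFD against NFD gave 289 calls and HFD against NFD 168. NAC_HFD against NFD fitted on only these groups gave 188. Leaving out a library gave 0 to 64 calls in NAC_HFD against HFD (64 without NAC_HFD library 1), 211 to 618 in NAC_HFD against NFD (211 without NAC_HFD library 4) and 90 to 375 in HFD against NFD (90 without HFD library 1). The number of genes of the set called in NAC_HFD against NFD was 0 to 1, the 1 being Mvd without NAC_HFD library 4. Sqle in HFD against NFD ranged from -0.96 to 0.02, positive without HFD library 4. Lss in the same comparison was 0.03 over mRNA transcripts, a setting chosen after seeing the data. The cause of these shifts was not tested. The labels do not say whether the replicate numbers pair the samples. Deviations of same-numbered samples correlated at -0.173 to 0.179. Differently numbered samples were not set beside them, so these values do not decide it. With the replicate block, 406 genes were called in NAC_HFD against NFD and 225 in HFD against NFD, and none of the 27. TPM gives no depth, so the counting error of low genes such as Sqle in NAC_HFD is unknown.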

Other observations

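Outside the set and the sterol lists, some genes of 4 further lists passed the threshold in comparisons with NFD. In those comparisons 1.76% of all genes were called higher and 3.52% lower in NAC_HFD, and 2.19% higher and 0.589% lower in HFD. Of the 2 tested adipose markers, Car3, a carbonic anhydrase that liver also expresses, averaged 1536 ± 290 TPM in NAC_HFD, 1962 ± 111 TPM in HFD and 696 ± 210 TPM in NFD (SD, n = 4 each; log2 fold changes 1.18 and 1.56 against NFD, adjusted p = 0.0102 and 0.00316, limma). Cfd, which encodes the adipokine adipsin, averaged 0.913 ± 0.883 TPM in NAC_HFD, 12.2 ± 13.7 TPM in HFD and 0.200 ± 0.255 TPM in NFD (SD, n = 4 each). It passed in HFD against NFD (log2 fold change 3.03, adjusted p = 0.0200, limma) but not in NAC_HFD against NFD (adjusted p = 0.571, limma). Each of these calls of Car3 and Cfd held in all 12 fits that left out a library. Of 5 tested monocyte and macrophage markers, 1 was called higher in HFD against NFD. This was Plac8, at 3.95 ± 0.857 TPM in NAC_HFD, 5.33 ± 1.11 TPM in HFD and 2.42 ± 0.807 TPM in NFD (SD, n = 4 each). Its log2 fold change in HFD against NFD was 0.90 (adjusted p = 0.0185, limma), and it did not pass without HFD library 1 or 2. In NAC_HFD against NFD the log2 fold change was 0.54 (adjusted p = 0.0880, limma). All 12 fasting response genes had a positive log2 fold change in HFD against NFD, with a median of 0.41. Over all genes tested, 52.7% were positive and the median was 0.01. Of the 12 genes, 1 was called higher: Pdk4, a kinase that restrains pyruvate oxidation. It averaged 1.29 ± 0.293 TPM in NAC_HFD, 2.19 ± 0.544 TPM in HFD and 1.11 ± 0.304 TPM in NFD (SD, n = 4 each). Its log2 fold change in HFD against NFD was 0.59 (adjusted p = 0.0465, limma), and it passed in 2 of 12 fits with a library left out. Of 15 tested circadian genes, 1 fell in NAC_HFD against NFD: Per2, a repressor of the clock, averaged 16 ± 2.91 TPM in NAC_HFD and 23.4 ± 2.36 TPM in NFD (SD, n = 4 each; log2 fold change -0.53, adjusted p = 0.0243, limma), and it passed in 8 of 12 such fits. The circadian genes had a median correlation of 0.31 with the mean of the 27 genes over the 12 libraries. Their values ranged from -0.58 for Per2 to 0.65 for Tef. Hlf, Nr1d2 and Nr1d1 were at 0.56, 0.53 and 0.51, and Arntl, Cry2 and Cry1 at -0.39, -0.39 and -0.38. The fasting response genes had a median of 0.27, with a range of 0.00 to 0.77. The part of these genes in the shared spread was not tested.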
